A study of Mus musculus with 3 samples.

Results

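The nuclei described here are GABAergic nuclei of the adult mouse basolateral amygdala (BLA) that carried Foxp2, Rarb and the trio Gpr149, Pth2r and Sema3e. They were chosen by their measured UMI counts. A nucleus was GABAergic by the gate when it had at least 1 unique molecular identifier (UMI, a counted RNA molecule) of Gad1 or Gad2, none of Slc17a7 or Slc17a6, and less than 0.1% of its UMIs in Slc1a2 and Slc1a3. A member further had at least 3 Foxp2 UMIs, at least 2 Rarb UMIs and at least 2 UMIs of the trio in sum. In all, 138 of 9199 barcodes were members, 41 in library 2 and 97 in library 3. They made up 18.3% (95% exact interval 13.5 to 24.0) of the 224 Foxp2 nuclei of library 2 and 17.3% (14.3 to 20.7) of the 561 of library 3, a mean of 17.8% ± 0.716 (SD, n = 2 libraries). Of all GABAergic nuclei they were 6.78% (4.91 to 9.08) and 9.32% (7.62 to 11.2). Library 1 held 19 GABAergic nuclei and 1 Foxp2 nucleus, which was not a member, so that the set was not detectable there.

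The study profiled single nuclei from the microdissected BLA of male C57BL/6NRj mice at postnatal day 56, untreated and of 1 condition, with droplet 3′ sequencing of nuclear RNA. Each library pooled tissue of 4 brains from 1 litter, both hemispheres, so that single animals could not be told apart. The 3 libraries held 819, 3792 and 4588 barcodes with a median of 7725, 3316 and 4116 UMIs. There was no contrast of treatment or genotype, and nuclei of the set were compared with other nuclei of the same library.

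Foxp2 encodes a forkhead transcription factor that is strong in the intercalated cells that border the BLA and in projection neurons of the striatum. Rarb encodes retinoic acid receptor beta, a ligand-activated transcription factor whose own gene is a classic target of retinoic acid. In the forebrain it is best known from the striatum, where it takes part in the formation of the projection neurons. Of the trio, Gpr149 encodes an orphan G protein-coupled receptor, Pth2r the receptor for the peptide TIP39, and Sema3e a secreted semaphorin that signals through plexin D1. Dissection of the BLA can include parts of the neighbouring intercalated cell masses and amygdalostriatal transition area.

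Members were deeper than the Foxp2 nuclei they were set against. Their median was 7564 UMIs in library 2 and 7571 in library 3, against 6693 and 5771 in the other Foxp2 nuclei. With every nucleus thinned to the same number of UMIs the comparisons below were run again. No member shared its barcode with another library. The doublet procedure marked 0 members in library 2 and 1 in library 3.

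A single member of library 2 stood apart. It had 77991 UMIs, while the next deepest Foxp2 nucleus of either library had 42415, and it supplied 18.9% of all UMIs of the 41 members of library 2. It passed the gate with 14 Foxp2, 4 Rarb and 6 trio UMIs. The same nucleus held 1387 of the 1395 Gpc5 UMIs of those members (99.4%), 98.8% of their Grik1 UMIs and 95 of their 100 Megf11 UMIs. Results that rest on it are given with and without it below, a step added after the data were seen.

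The GABAergic label was checked in genes outside the gate. The neuronal markers Rbfox3 (699 and 658 in the members of libraries 2 and 3, in CPM, the share of all UMIs of a group on the usual scale of that unit) and Snap25 (804 and 751) were near the level of the other Foxp2 nuclei, where Rbfox3 had 877 and 654 and Snap25 787 and 765. The vesicular GABA transporter Slc32a1 was sparse in nuclear RNA, with 14.6 and 9.42 CPM in members, 16.6 and 11.1 in other Foxp2 nuclei and 4.04 and 5.29 in barcodes rich in oligodendrocyte RNA. The latter barcodes, 186 and 350 with a median of 2113 and 1958 UMIs, served to show how much of a transcript free RNA leaves in a droplet. Some genes, such as Ephb1 (772 and 851 CPM there), were higher in these barcodes than in members, and for them this reading does not hold. Of the 7 genes of a list for neuron and GABAergic identity, all tested, 0 passed between members and other Foxp2 nuclei in edgeR or DESeq2 and 0 had an unadjusted p under 0.05, with a median log2 fold change of −0.10.

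Markers of other cell types were low, with an exception. The 7 oligodendrocyte genes summed to 218 and 167 CPM in members, 188 and 280 in other Foxp2 nuclei and 19266 and 18084 in the oligodendrocyte-rich barcodes, with Mbp the most abundant of them in members of library 3 and Mbp and St18 level at 31 UMIs in library 2. The 6 microglial genes summed to 29.1 and 44.0 in members and the 5 vascular genes to 1 and 5 UMIs in all, with Cldn5 and Vtn at 0 in both libraries. The 7 astrocyte genes summed to 3816 in members of library 2 and to 552 in library 3, with 451 and 544 in other Foxp2 nuclei, while Aldh1l1 was at 0 in members of both libraries and Gja1 in library 2. Gpc5 was the most abundant astrocyte gene in library 2 and Slc4a4 in library 3. Without the deepest nucleus the sum in library 2 was 548. The 5 genes of oligodendrocyte precursors behaved alike, at 1287 in library 2 and 416 without that nucleus, and 651 in library 3. Cspg4 was at 0 in members of both libraries, and Lhfpl3 was the most abundant. The 7 genes of glutamatergic neurons summed to 578 and 547 in members and 650 and 528 in others, with Camk2a the most abundant and Tbr1 at 0 in members, and the 5 ependymal genes to 75.3 and 54.4 against 45.0 and 49.9. Of the genes of these lists that were tested against other Foxp2 nuclei (4 of astrocytes, 5 of oligodendrocytes, 3 of precursors, 4 of microglia, 2 of glutamatergic neurons and 2 ependymal), 0 passed in edgeR or DESeq2, and Slc4a4 and Plpp3 of astrocytes, Lhfpl3, P2ry12 and Cfap44 were among those with an unadjusted p under 0.05 in edgeR. Without the deepest nucleus 3 of these genes passed in edgeR, Slc4a4 higher (log2 fold change 0.64) and Gpc5 (−1.14) and Megf11 (−0.92) lower in members, and without the nuclei low in Erbb4 that are described below Slc4a4 (0.68) and Gpc5 (−0.93) did. The part of glial RNA in the other results was not tested.

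Foxp2 (chr6:14901349-15441977 of GRCm38, plus strand) was at a similar level in members and in the nuclei they were set against. Its median was 15 UMIs a nucleus in library 2 and 19 in library 3, and its highest count 55 and 105. Summed over the group this was 1719 and 2149 CPM, against 1699 and 2166 in the other Foxp2 nuclei, so that library 3 was above library 2 on both sides. In the oligodendrocyte-rich barcodes Foxp2 had 20.2 and 41.0 CPM. These and the next values belong to the genes of the gate and are given as a description.

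Rarb (chr14:16430839-16819156, minus strand) ranged more widely among members. The median was 5 and 6 UMIs, but the highest count was 10 in library 2 and 51 in library 3. Members had 500 and 895 CPM, and Foxp2 Rarb nuclei without the trio (51 and 138 nuclei) had 627 and 622, so that the order of the groups differed between the libraries. Foxp2 nuclei with fewer than 2 Rarb UMIs (132 and 326) had 26.3 and 30.8, and oligodendrocyte-rich barcodes 10.1 and 10.6.

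The retinoic acid response element of Rarb gives a concrete view of how a receptor acts on its own gene. RefSeq starts a Rarb transcript inside the gene, on the minus strand, and the 250 bases before that start (chr14:16575477-16575726, GRCm38.p6) are shown with the sequence of Sema3e (chr5:14025026-14025275, plus strand), the trio gene found in most members. Capitals mark words of 6 bases that retinoid receptors bind as the units of a response element. The bases between the neighbouring units GGTTCA and AGTTCA are in capitals as well.
Rarb: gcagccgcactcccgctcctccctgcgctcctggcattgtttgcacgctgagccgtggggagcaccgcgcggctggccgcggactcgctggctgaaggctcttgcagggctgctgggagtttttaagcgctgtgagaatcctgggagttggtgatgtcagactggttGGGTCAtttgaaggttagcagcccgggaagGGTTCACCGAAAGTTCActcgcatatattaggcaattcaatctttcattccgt
Sema3e: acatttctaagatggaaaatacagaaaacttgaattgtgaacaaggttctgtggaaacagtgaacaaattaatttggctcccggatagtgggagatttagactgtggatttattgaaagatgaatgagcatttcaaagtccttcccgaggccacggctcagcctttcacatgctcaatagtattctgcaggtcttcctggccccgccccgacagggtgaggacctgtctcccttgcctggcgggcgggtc
In Rarb the direct repeat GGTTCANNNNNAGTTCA lay 53 to 37 bases before the start, on the strand of the gene, and a further unit, GGGTCA, 83 to 78 bases before it. On either strand, that repeat was found in 2 of 32851 promoters of this length (0.00609%), Rarb included, whereas the word AGGTCA, the word AGTTCA, the word GGGTCA or the word GGTTCA was found in 38.6%; the repeat contains the second and the last of these. The windows of Sema3e and Pth2r held none of these words. None of the 3 windows held a forkhead word (TGTTTAC, or TGTTTAT, or the like pair TATTTAC and again TATTTAT), which 13.6% of promoters did on either strand. A match of letters is a description of these windows and no measure of binding. Gpr149 and Foxp2 were not analysed here in this respect.

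Sema3e (chr5:14025276-14256689, plus strand) was the most frequent gene of the trio. At least 1 Sema3e UMI was found in 95.1% of members of library 2 and 85.6% of library 3, with a median of 2 UMIs and a highest count of 10 and 11. Summed, Sema3e had 284 and 305 CPM in members, 25.6 and 45.1 in other Foxp2 nuclei and 20.2 and 19.8 in oligodendrocyte-rich barcodes. Both libraries were thus close to each other in this gene.

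Gpr149 (chr3:62529077-62605140, minus strand) and Pth2r (chr1:65282056-65389244, plus strand) were found in fewer members and differed between the libraries. Gpr149 was seen in 29.3% of members of library 2 and in 60.8% of library 3, at 68.0 and 172 CPM, with 11.1 and 18.3 in other Foxp2 nuclei. Pth2r was seen in 29.3% and 39.2% of members, at 43.7 and 97.3 CPM, with 27.7 and 30.1 in other Foxp2 nuclei. Library 3 was higher in members for both genes. In oligodendrocyte-rich barcodes Gpr149 had 4.04 and 3.96 CPM and Pth2r was at 0, which allows up to 1.96% and 1.05% of those barcodes to hold a UMI by the exact interval.

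**Figure D1:**
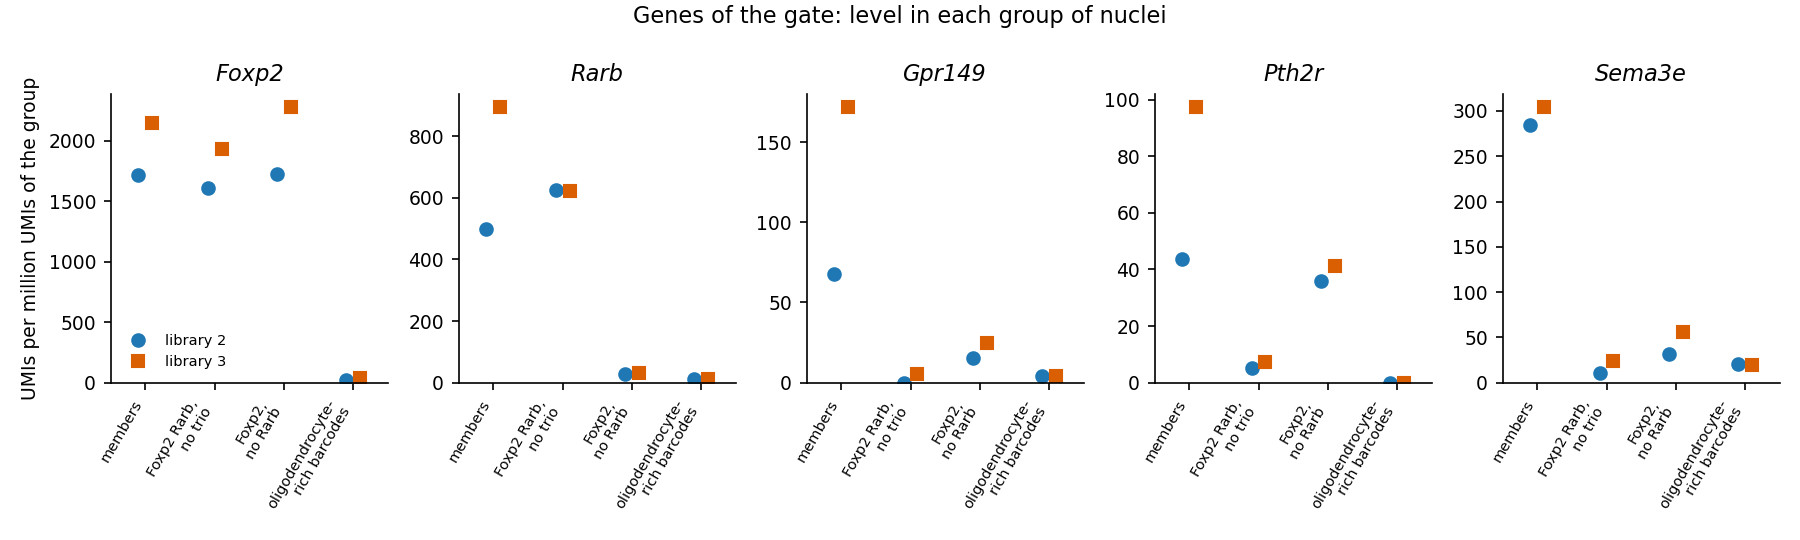
CPM of the 5 marker genes of the gate (y axis, 1 linear scale per gene) in members, Foxp2 Rarb nuclei without the trio, Foxp2 nuclei without Rarb and oligodendrocyte-rich barcodes, as 1 point per library (circles library 2, squares library 3). Foxp2 is alike in the 3 groups of Foxp2 nuclei, Sema3e is near 284 and 305 in members, and Gpr149 and Pth2r are higher in members of library 3 than of library 2.

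The trio was rarely complete in a nucleus. All 3 genes had a UMI in 21 of 138 members (15.2%, 9.67 to 22.3) and 2 or 3 of them in 84 (60.9%, 52.2 to 69.1). The largest combinations were Sema3e alone with 41 members, Gpr149 with Sema3e with 37, and Pth2r with Sema3e with 23. Gpr149 alone was found in 10 members, Pth2r alone in 3, and Gpr149 with Pth2r but without Sema3e in 3. Sema3e alone made up 48.8% (32.9 to 64.9) of members of library 2 and 21.6% (13.9 to 31.2) of library 3, and Gpr149 with Sema3e 17.1% (7.15 to 32.1) and 30.9% (21.9 to 41.1). The intervals cover counting error only. At these counts a nucleus without a UMI of a gene may still express it.

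**Figure D2:**
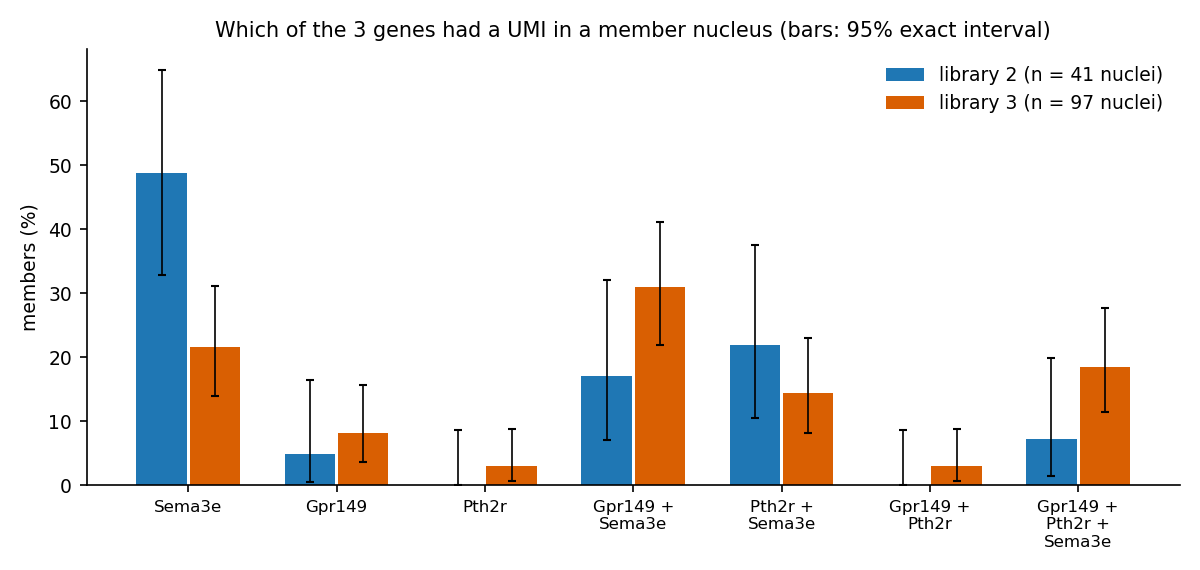
Share of members (y axis, percent) by which genes of the trio had at least 1 UMI (x axis), for library 2 (41 nuclei) and library 3 (97 nuclei), with 95% exact intervals for counting error. Sema3e alone leads in library 2 at 48.8% and Gpr149 with Sema3e in library 3 at 30.9%.

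The edge of the gate was well populated. Among nuclei with Foxp2 and Rarb, 45 in library 2 and 98 in library 3 had no trio UMI, 6 and 40 had 1, 12 and 25 had 2, and 12 and 42 had 5 or more. Nuclei just outside the gate, with 1 trio UMI, were thus more frequent in library 3. A further 22 and 61 Foxp2 nuclei had at least 2 trio UMIs but fewer than 2 of Rarb.

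Read without the trio part of the gate, Sema3e was found more often in Foxp2 nuclei with Rarb than in those without. A Sema3e UMI was found in 46.7% (36.3 to 57.4) of the 92 Foxp2 nuclei with Rarb of library 2 and in 15.2% (9.51 to 22.4) of the 132 without. In library 3 it was found in 46.4% (39.9 to 53.0) of 235 and in 20.2% (16.0 to 25.0) of 326, and in oligodendrocyte-rich barcodes in 4.30% and 2.29%. With each nucleus thinned to 3200 UMIs it was found in 32 of 89 nuclei with and 14 of 122 without Rarb in library 2. The counts in library 3 were 76 of 223 and 36 of 280, in the same order. Sema3e and Rarb both belong to the gate, so these shares are a description with no test. Their intervals cover counting error only. Gpr149 had 13.0% against 9.09% in library 2 and 27.7% (65 of 235) against 36 of 326 nuclei in library 3. Pth2r had 15.2% against 16.7% and 19.6% against 14.7%, a difference whose sign was not the same in both libraries. The median depth with and without Rarb was 7188 and 6607 UMIs in library 2 and 6744 and 5554 in library 3, and 2113 and 1958 in the oligodendrocyte-rich barcodes.

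Sema3e and Pth2r were found more often where Gpr149 was found. Among nuclei with Foxp2 and Rarb, chosen with no regard to the trio, a Sema3e UMI was found in 10 of 12 nuclei with Gpr149 and 41.3% of 80 without in library 2, and in 73.8% (61.5 to 84.0) of 65 with and 35.9% (28.7 to 43.6) of 170 without in library 3. Over both libraries this was 58 of 77 nuclei (75.3%) against 94 of 250 (37.6%), a difference of 37.7 percentage points. After thinning it was 51.0% against 31.4%, a difference of 19.6 points. Pth2r was found in 31.2% of nuclei with Gpr149 and 14.4% without (23.5% and 8.43% thinned). By library this was 3 of 12 nuclei (5.49% to 57.2%) against 13.75% of 80 in library 2, and 32.3% of 65 against 14.7% of 170 in library 3. Nuclei with Gpr149 were the shallower ones in library 2 (median 5731 against 7231 UMIs) and the deeper ones in library 3 (8140 against 6247). Nuclei of a library share their source, so these shares are a description with no test.

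In the comparison with the other Foxp2 nuclei (183 and 464), members were higher in 5 of 12 tested genes of striatal-type projection neurons and in Hs6st3, Arhgap10 and Dach1, and lower in Kcnh8, Chrm2 and Eya4. Of the other Foxp2 nuclei, 132 and 326 had fewer than 2 Rarb UMIs, so that most differed from members in Rarb. Of the 5 striatal genes only Gng7 and Rgs9 also passed against Foxp2 Rarb nuclei without the trio, a comparison given further below. UMIs were summed per library and group, and each of 8446 genes was tested with edgeR's quasi-likelihood test with the library as a block. At an adjusted p under 0.05, 93 genes passed (1.1%), 45 higher (0.533% of genes tested) and 48 lower (0.568%) in members. All 93 had the same direction in both libraries. Without the deepest nucleus 375 genes passed (4.41%), among them 92 of the 93, and with every nucleus thinned to the same UMIs 152 of 5182 passed (2.93%), among them 77 of the 93. Of the genes described below, Adcy5 (0.71), Casz1 (0.91), Rbms1 (1.11), Cpne8 (−1.26) and Rph3a (−2.01) were tested after thinning and did not pass. DESeq2, which gave 3530 genes an adjusted p, called 47 (1.33%), all among the 93, and of the genes described below it did not call Hs6st3, Phactr1, Sytl5, Casz1, Tacr1, Slit3, Tmem132d, Chsy3, Rgs9, Adcy5, Adarb2, Kcnn2, Ephb1 and Cdh8, and gave Eya4, Rph3a and Tac1 no adjusted p.

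Of the list for striatal-type projection neurons, 12 of 15 genes were tested, 5 were higher and 0 lower, with a median log2 fold change of 0.71 against −0.01 for all genes tested. DESeq2 called 2 of the 5, Gng7 and Bcl11b. The largest change was that of Gng7, a G protein gamma subunit that couples striatal receptors to adenylyl cyclase. It had 172 and 222 CPM in members and 61.6 and 58.7 in other Foxp2 nuclei, a log2 fold change of 1.76 ± 0.17 (SE, edgeR adjusted p = 0.00164). Gng7 in members was above other Foxp2 nuclei in both libraries, while oligodendrocyte-rich barcodes had 115 and 139. Bcl11b, a zinc finger transcription factor of striatal projection neurons, had 255 and 257 in members and 111 and 134 in the others (1.07 ± 0.15, edgeR adjusted p = 0.0102). Rgs9, which speeds the turnover of G proteins behind dopamine and opioid receptors, had 165 and 226 against 96.2 and 100 (1.02 ± 0.16, edgeR adjusted p = 0.0172). Adcy5, the main adenylyl cyclase of the striatum, had 180 and 269 against 118 and 114 (0.99 ± 0.18, edgeR adjusted p = 0.0304). The gap between groups was larger in library 3 for both Rgs9 and Adcy5, and oligodendrocyte-rich barcodes had 131 and 137 CPM of Adcy5. Phactr1, a regulator of actin and protein phosphatase 1, was the list's gene with the most UMIs, at 3923 and 6419 against 2872 and 3163 (0.75, edgeR adjusted p = 0.0307), and was named after its value was seen.

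The 15 genes of the striatal list summed to 9495 and 14045 CPM in members, 9131 and 9614.5 in other Foxp2 nuclei and 10069 and 9905 in Foxp2 Rarb nuclei without the trio, and to 11395 in members of library 2 without the deepest nucleus. Members thus stood above both groups in library 3, and in library 2 above both only without that nucleus. The rest of the striatal list did not pass. Pde10a had 558 and 1207 CPM in members and 1200.0 and 1087 in others, with opposite order in the libraries, and Foxp1 303 and 620 against 334 and 332. Ppp1r1b, which encodes DARPP-32, the defining phosphoprotein of striatal projection neurons, was nearly absent at 4.86 and 10.5 CPM in members (2 and 10 UMIs) and fell under the filter, as did Scn4b. Without the deepest nucleus 8 of the 12 genes were higher, where 2.24% of all genes were. The list was chosen with earlier results of these data known, and its count is a description.

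Of the 16 genes for dopamine and DARPP-32 signalling, 12 were tested and 3 were higher, Gng7, Adcy5 and Rgs9, which the striatal list also holds. The dopamine receptor Drd1 had 29.1 and 29.3 CPM in members and 22.2 and 16.5 in others (log2 fold change 0.67 ± 0.31, edgeR adjusted p = 0.53). Drd2, at 4.86 and 13.6 against 2.08 and 2.41, and Adora2a, with 1 and 3 UMIs against 3 and 5, were under the filter. Of the 6 tested genes of the D1 direct pathway, 1 passed: Tac1, which encodes substance P, had 9.71 and 13.6 against 1.38 and 1.80 (2.84 ± 0.54, edgeR adjusted p = 0.0385), with only 4 and 13 UMIs in members, and fell under the filter after thinning. Zfp521 was higher (1.05) and Eya1 lower (−1.69) besides without the deepest nucleus, and without nuclei low in Erbb4 Zfp521 was (1.83). Of the 3 tested D2 genes 0 passed in edgeR or DESeq2, with Sp9 at an unadjusted p under 0.05. Of 4 opioid genes and 3 immediate early genes tested 0 passed in edgeR or DESeq2, with Nr4a1 at an unadjusted p under 0.05. The 3 immediate early genes were all below 0, with a median of −0.79, and Nr4a1 passed as lower without the deepest nucleus (−1.49, edgeR adjusted p = 0.047). Penk, the precursor of enkephalin, had 53.4 and 38.7 against 33.2 and 37.6 (0.30 ± 0.26, edgeR adjusted p = 0.82).

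Of genes of intercalated cells, Meis2, Tshz1 and Oprm1 were above the level of oligodendrocyte-rich barcodes in members, and none of the list passed the test. Of the 7 genes tested, 0 passed in edgeR or DESeq2 and 3 had an unadjusted p under 0.05 in edgeR (Erbb4, Pax6 and Tshz1), with a median log2 fold change of −0.09. Meis2, a homeobox gene of this lineage, had 2326 and 2767 CPM in members and 2536 and 2807 in others (−0.06 ± 0.11), with 66.7 and 100.4 in oligodendrocyte-rich barcodes. Tshz1, a zinc finger gene by which intercalated cells are recognised, had 337 and 362 against 492 and 451 (−0.41 ± 0.14, edgeR adjusted p = 0.339), with 82.9 and 63.4 in oligodendrocyte-rich barcodes. Oprm1, the mu opioid receptor, had 194 and 175 against 205 and 192 (−0.09 ± 0.15), with 2.02 and 15.9 in those barcodes. Erbb4, the neuregulin receptor, had 7011 and 7738 against 9361 and 10266 (−0.40, edgeR adjusted p = 0.101), lower in members in both libraries without passing, and was itself at 3964 and 3249 in oligodendrocyte-rich barcodes. Sp8 was at 0 in members of both libraries and Adra2a in library 2.

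The 11 markers of the central amygdala summed to 53.4 and 50.2 CPM in members and 86.6 and 64.1 in other Foxp2 nuclei, with Wfs1 the most abundant in members at 26.7 and 22.0 (2.02 and 2.64 in oligodendrocyte-rich barcodes). Prkcd, its best known marker, had no UMI in members of either library, where 3 UMIs would be 7.28 and 3.14 CPM, and 1.38 and 3.61 CPM in other Foxp2 nuclei. Dlk1, Nts, Crh and Ezr were at 0 in members of both libraries as well, and of the 2 genes tested 0 passed in edgeR or DESeq2, with Crhr1 at an unadjusted p under 0.05. The 18 interneuron genes summed to 3989 and 3228 CPM in members and 2528 and 2369 in others, but Adarb2 alone made up 3845 and 2981 of it. Adarb2, an RNA-editing enzyme family member found in interneurons of caudal origin and in atypical striatal neurons, passed (2348 and 2157 in others, 0.61 ± 0.12, edgeR adjusted p = 0.0454). The deepest nucleus held 36.1% of the Adarb2 UMIs in members of library 2. Without it the 18 interneuron genes summed to 3138 CPM there, and Adarb2 was at 0.43 (edgeR adjusted p = 0.0215). Of the interneuron list 7 genes were tested, with a median log2 fold change of −0.53 with all nuclei. Reln of the interneuron list passed as higher besides without the deepest nucleus (1.08) and without nuclei low in Erbb4 (1.48). Htr3a was at 0 in members of both libraries, and Sst, Pvalb and Vip were at 0 in library 2. Of the list for atypical striatal neurons, 6 of 10 genes were tested. Casz1, a zinc finger transcription factor, was higher, with 75.3 and 61.8 against 27.7 and 25.3 (1.36 ± 0.23, edgeR adjusted p = 0.0216), and Chst9, a sulfotransferase, was lower, with 566 and 435 against 1009.6 and 896 (−0.92 ± 0.14, edgeR adjusted p = 0.0111). Otof, a calcium sensor of exocytosis in that list, had 396 and 259 against 472 and 314 and did not pass.

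Among the genes outside these lists that were higher in members was Arhgap10. Arhgap10, a GTPase-activating protein, had 82.5 and 121 CPM in members and 26.3 and 25.6 in others, a log2 fold change of 2.04 ± 0.22 (edgeR adjusted p = 0.00307). Prkd1, protein kinase D1, had 197 and 248 against 70.6 and 100 (1.39 ± 0.16). Tacr1, the receptor for substance P, had 94.7 and 107 against 39.5 and 48.7 (1.19 ± 0.19, edgeR adjusted p = 0.0176). Members were above the others in both libraries in all of these, and without the deepest nucleus the log2 fold changes were 2.11, 1.25 and 1.21. Cntnap5a, a contactin-associated adhesion protein, had 891 and 1134 against 422 and 503 (1.14 ± 0.13). Slit3, a secreted ligand of Robo receptors, had 197 and 467 against 134 and 166 (1.11 ± 0.21), with most of the difference in library 3. Sytl5, a synaptotagmin-like protein, had 63.1 and 80.6 against 26.3 and 24.1 (1.58 ± 0.23), with 133 and 68.7 in oligodendrocyte-rich barcodes.

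Hs6st3, Dach1 and Rbms1 depended on few nuclei. Hs6st3, which adds sulfate to heparan chains, had 1012 and 729 CPM in members and 134 and 281 in others, with a log2 fold change of 2.12 ± 0.30 and 1.25 without the deepest nucleus, which held 78.7% of its UMIs in members of library 2. Dach1, a transcriptional cofactor, had 138 and 121 against 24.9 and 43.0 (1.86 ± 0.24, edgeR adjusted p = 0.00627), and Rbms1, an RNA-binding protein, 114 and 90.02 against 35.3 and 28.9 (1.67 ± 0.20, edgeR adjusted p = 0.00434). In members of library 2 the deepest nucleus held 20 of 57 Dach1 UMIs (35.1%) and 33 of 47 Rbms1 UMIs (70.2%). Without it Dach1 was at 1.71 and Rbms1 at 1.25. When nuclei low in Erbb4 were left out on both sides, an alternative added after the data were seen, Dach1 was at 1.12 (edgeR adjusted p = 0.0144) and Rbms1 at 0.93 (edgeR adjusted p = 0.0915).

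Among the lower genes, Kcnh8 was nearly absent from members, as it was from Foxp2 Rarb nuclei without the trio. This voltage-gated potassium channel of the Elk family had 2 and 6 UMIs in members, 4.86 and 6.28 CPM, against 72.7 and 84.2 in other Foxp2 nuclei (−3.76 ± 0.33, edgeR adjusted p = 0.00117). Chrm2, the M2 muscarinic acetylcholine receptor, had 43.7 and 29.3 against 205 and 176 (−2.42 ± 0.20, edgeR adjusted p = 0.000917). Kcnh8 was at 0 and 12.9 CPM in Foxp2 Rarb nuclei without the trio, where 3 UMIs would be 7.87 CPM in library 2, and at 98.8 and 119 in Foxp2 nuclei with fewer than 2 Rarb UMIs. It was low in both groups with Rarb and fell under the filter of the comparison between them. Chrm2 had 70.8 and 85.5 CPM in the former nuclei and 253 and 220 in the latter. Both genes were lower in members than in other Foxp2 nuclei in each library, and Chrm2 was at −2.54 and Kcnh8 at −3.67 without the deepest nucleus. Runx2, a Runt transcription factor, had 24.3 and 55.5 against 127 and 166 (−1.79 ± 0.22), and Eya4, a transcriptional coactivator, 21.8 and 6.28 against 62.3 and 41.2 (−2.08 ± 0.36). Homer2, a scaffold of group I metabotropic glutamate receptors, had 19.4 and 36.6 against 132 and 108 (−1.91 ± 0.26). The other genes named as lower were Tmem132d (−1.95), Mcc (−1.90), Rerg (−1.75), Cpne8 (−1.64), Fbxl7 (−1.64), Chsy3 (−1.59) and Rph3a (−1.52), each with an edgeR adjusted p between 0.00307 and 0.0493. Of these Tmem132d, Chsy3 and Fbxl7 were more than 1 log2 unit lower in library 2 than in library 3.

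**Figure D3:**
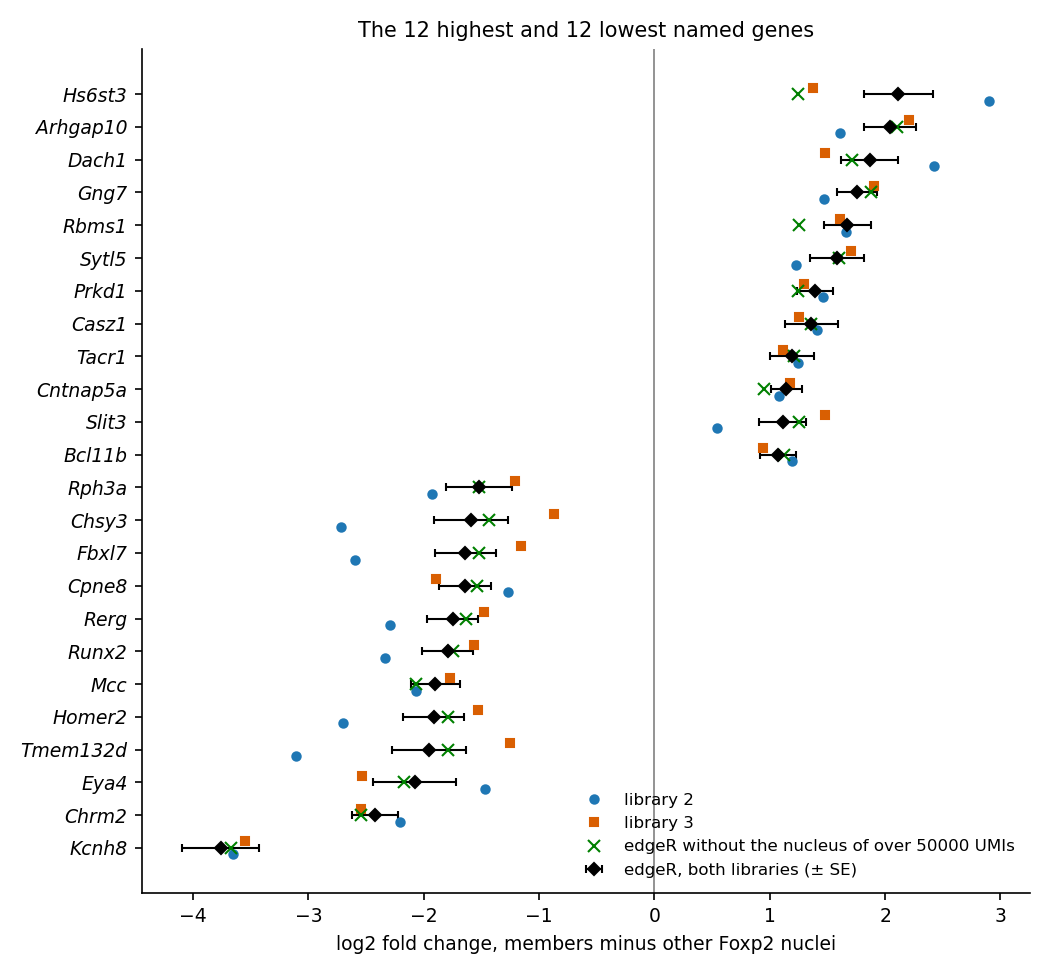
Log2 fold change, members minus other Foxp2 nuclei (x axis), for the 12 highest and 12 lowest named genes: edgeR estimate over both libraries with its SE (diamond), each library alone (circle library 2, square library 3), and the estimate without the nucleus of over 50000 UMIs (cross). All points of a gene lie on the same side of 0, and the largest gap between diamond and cross is that of Hs6st3, 2.12 against 1.25.

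Of 19 genes of retinoid signalling 5 were tested and 0 passed in edgeR or DESeq2, with 1 at an unadjusted p under 0.05 and a median of −0.11. The partner receptor Rxrg had 46.1 and 34.5 CPM in members and 36.01 and 36.4 in others, and the corepressor Ncor1 274 and 261 against 321 and 268. The enzymes that make retinoic acid, Aldh1a1, Aldh1a2 and Aldh1a3, were at 0 in members of both libraries. Of 26 semaphorins, plexins and neuropilins 18 were tested, 0 higher and 1 lower. The lower gene was Sema6d, a transmembrane semaphorin, with 510 and 757 against 1244 and 1172 (−0.93 ± 0.16, edgeR adjusted p = 0.0289). Without the deepest nucleus Sema5b (0.53) and Plxna2 (0.57) passed as higher besides, and without nuclei low in Erbb4 Sema5b (0.57). Plxnd1, the receptor of Sema3e, had 1 and 3 UMIs in members. Pth2, which encodes TIP39, the ligand of Pth2r, had no UMI in members or other Foxp2 nuclei. Of its family only Ramp1, which modifies related receptors, was tested, with 19.4 and 38.7 against 30.5 and 26.5 (0.19).

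Channels, receptors and adhesion genes moved singly and not as lists. Of 27 potassium channel genes, all tested, 1 was higher and 3 lower, with a median of −0.02. Over all genes tested 0.533% were higher and 0.568% lower. The higher gene was Kcnq5, a subunit of the M current, at 1296 and 2228 CPM against 704 and 1018 (1.03 ± 0.13, edgeR adjusted p = 0.00515). Besides Kcnh8, the lower genes were Kcnip1, an auxiliary subunit of A-type channels (80.1 and 62.8 against 211 and 145, −1.27 ± 0.17), and Kcnn2, a small-conductance channel opened by calcium (245 and 207 against 415 and 381, −0.81 ± 0.15). Of 13 genes for GABA-A receptors and gephyrin 0 passed in edgeR or DESeq2 (median 0.05), with Gabrg1 at an unadjusted p under 0.05. Gabrb2 was lower without nuclei low in Erbb4 (−0.60, edgeR adjusted p = 0.0169). Among 11 Eph receptors and ephrins tested, Ephb1 was higher (153 and 224 against 96.2 and 124, 0.79 ± 0.16), with 772 and 851 in oligodendrocyte-rich barcodes. When the deepest nucleus was left out, 2 of these passed as higher, Epha4 besides Ephb1, and 3 as lower, Epha5, Epha6 and Ephb2, and without nuclei low in Erbb4 Epha6 passed as lower. Among 19 cadherins tested, Cdh8 was lower (352 and 406 against 676 and 713, −0.86 ± 0.14) and 0 were higher. With the deepest nucleus left out 4 were higher (Cdh10, Cdh11, Pcdh9 and Pcdh11x) and 2 lower (Cdh6 and Cdh8), and without nuclei low in Erbb4 2 were higher and 3 lower, so that the balance of this list depended on those nuclei while Cdh8 was lower in each case. Potassium channels went from 3 to 5 lower genes without the deepest nucleus, with 1 higher as before, the added genes being Kcnb2 and Kcnh5. Over all genes tested 4.41% passed without that nucleus, in either direction.

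Members were not uniform. Erbb4 set a minority apart: its median was 76.2 UMIs per 10000 in members of library 2 and 84.9 in library 3, against 90.1 and 106 in other Foxp2 nuclei, but some nuclei had few or none. With under 30 per 10000 taken as low, a value chosen after the data were seen, 3 of 41 and 17 of 97 members were low (20 of 138, 14.5%, 9.08 to 21.5), against 58 of 647 other Foxp2 nuclei (8.96%, 6.88 to 11.4). The order differed between libraries: low nuclei were 7.32% of members and 22 of 183 others in library 2, and 17.5% of members and 36 of 464 others in library 3. Between 20 and 40 per 10000 lay 1 member of library 2 and 6 of library 3. The deepest nucleus was among the low ones, at 5.13 per 10000. In library 3 the low members had a median of 9792 UMIs and the high ones 7529.

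**Figure D4:**
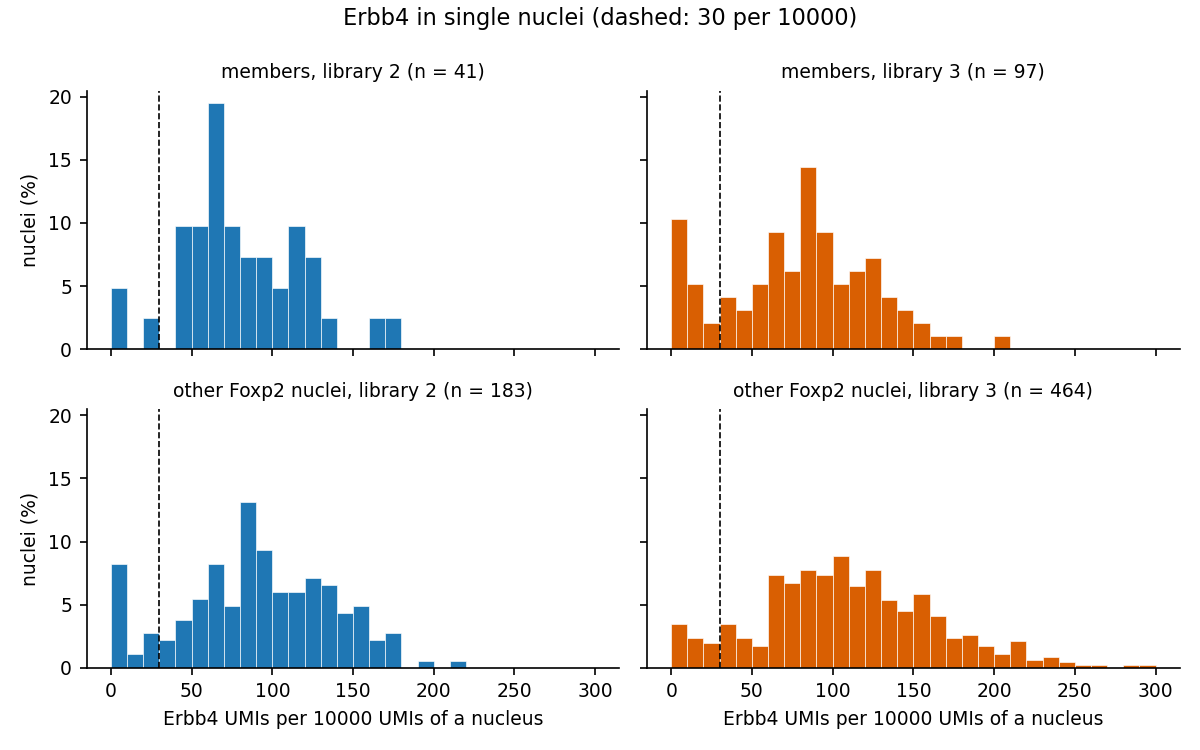
Share of nuclei (y axis, percent) by Erbb4 UMIs per 10000 UMIs of the nucleus (x axis, bins of 10) in members (top) and other Foxp2 nuclei (bottom), library 2 left and library 3 right, with 30 per 10000 dashed. Most nuclei lie above the line, and 3 of 41 and 17 of 97 members lie below it.

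In library 3 the 17 low members are set beside the 80 high ones. These are sums over nuclei that were split after their values were seen, so no test is given. The low members had 922 Foxp2 CPM and the high ones 2486, while Rarb was 1175 and 818. Tshz1 was 102 in low and 434 in high members, Oprm1 72.8 and 203, Meis2 2184 and 2927, and Adarb2 1354 and 3428. Foxp1, a forkhead factor of striatal projection neurons, was 1490 and 380, Pde10a, the striatal phosphodiesterase, 2136 and 951, and Dach1 320 and 66.7. Tshz1, Oprm1 and Meis2 were thus lower and Foxp1, Pde10a and Dach1 higher in the low members. Drd2 was 58.2 in low and 1.33 in high members, and Casz1 4.85 and 77.4. Of the trio, Gpr149 was 209 and 161, Pth2r 29.1 and 116, and Sema3e 223 and 327, so that Gpr149 and Sema3e were found on both sides. Library 2 had 2 low members besides the deepest nucleus, in which Foxp1 (815 against 269 in the 38 high members), Dach1 (660 against 64.9) and Tshz1 (116 against 419) had the same order.

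**Figure D5:**
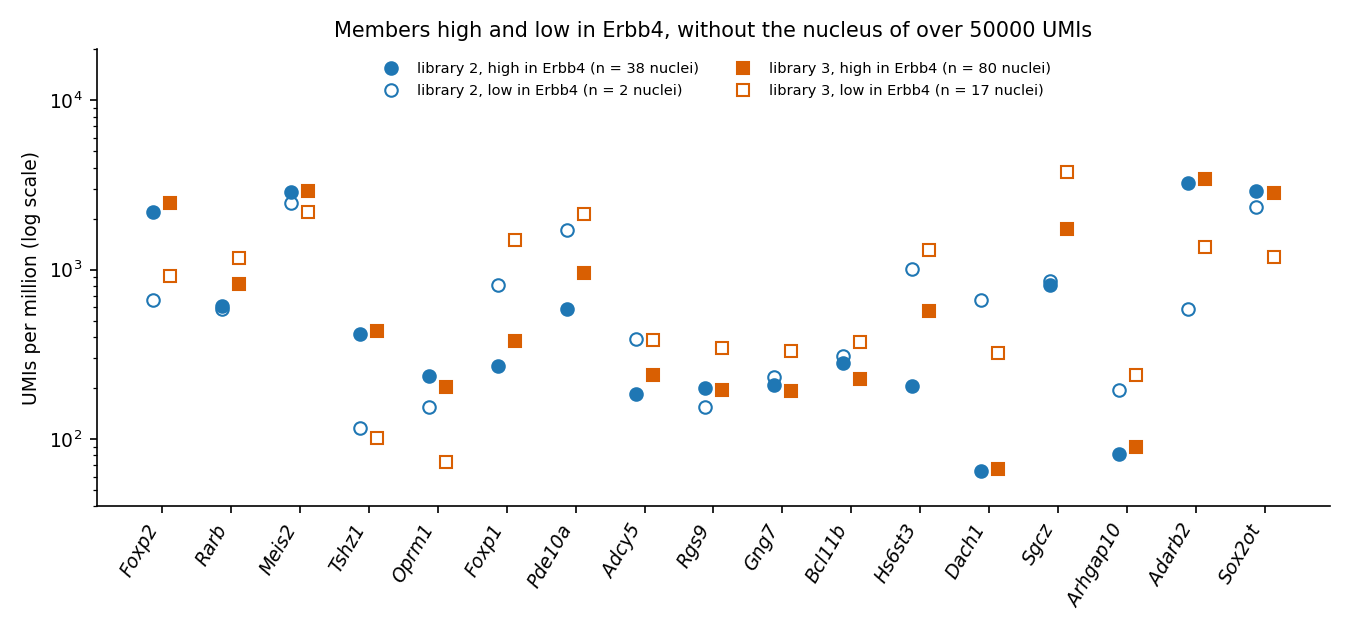
CPM (y axis, log scale) of 17 genes in members high (filled) and low (open) in Erbb4, library 2 circles and library 3 squares, without the nucleus of over 50000 UMIs. Foxp2, Tshz1 and Oprm1 lie lower and Foxp1, Pde10a, Hs6st3 and Dach1 higher in the open symbols of both libraries; library 2 has 2 low nuclei.

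The comparison with other Foxp2 nuclei was run again without the nuclei low in Erbb4. With both sides so reduced, 280 genes passed (3.59%), among them 89 of the 93, and Gng7 was at 1.94, Arhgap10 at 2.18, Bcl11b at 1.11, Kcnh8 at −3.43 and Chrm2 at −3.16. The 4 genes that no longer passed, named after their values were seen, were Cntn4, Mpp7, Rbms1 and Tmtc1.

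Members with and without a Gpr149 UMI are given as a description, since the gate used Gpr149. In library 3, 59 members with Gpr149 had 996 Rarb CPM and 38 without had 706, and Sema3e was 324 and 269. Foxp1 was 702 and 467, Kcnh8 1.61 and 15.0, and Gng7 254 and 162. In library 2 Rarb was 335 in 12 members with Gpr149, the deepest nucleus among them, and 591 in 29 without, and Gng7 was 164 and 177. Without the deepest nucleus the 11 members with Gpr149 had 660 Rarb and 337 Gng7 CPM, above those without it as in library 3. Sema3e had the opposite order in library 2, 220 in these 11 members and 373 in those without Gpr149.

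The closest neighbours of the members were the Foxp2 Rarb nuclei without the trio (51 and 138), and against them the calls depended more on the tool and on few nuclei. This comparison shares the members with the previous one, and its comparison nuclei are part of the other Foxp2 nuclei. Of 6710 genes tested, 87 passed in edgeR (1.3%), 54 higher (0.805%) and 33 lower (0.492%), and 83 had the same direction in both libraries. DESeq2 called 3 genes (0.0447%), Sgcz, Hs6st3 and the predicted gene Gm40663, named after their values were seen, with 66 at an unadjusted p under 0.05. Without nuclei low in Erbb4 18 genes passed (0.298%), 14 of them among the 87, and with every nucleus thinned to the same UMIs 27 passed (0.754%), 22 of them among the 87.

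Sgcz, which encodes zeta-sarcoglycan of the dystrophin complex, passed with edgeR, with DESeq2 and without nuclei low in Erbb4. It had 1478 and 2180.3 CPM in members and 378 and 738 in Foxp2 Rarb nuclei without the trio, a log2 fold change of 1.79 ± 0.17 (edgeR adjusted p = 4.36e-23) and 1.40 without the deepest nucleus, which held 55.5% of its UMIs in members of library 2. Members were above in both libraries. Hmcn1, an extracellular matrix protein, had 51.0 and 96.3 against 10.5 and 20.2 (2.28 ± 0.33, edgeR adjusted p = 4.19e-09), and 2.16 without nuclei low in Erbb4 (edgeR adjusted p = 0.0289). Pcdh10, a protocadherin, had 119 and 169 against 57.7 and 65.3 (1.29 ± 0.23, edgeR adjusted p = 1.12e-05). Pcsk5, a proprotein convertase, was lower, with 38.8 and 53.4 against 105 and 149 (−1.43 ± 0.25, edgeR adjusted p = 6.22e-06), and Tmem132d had 65.5 and 194 against 357 and 366 (−1.41 ± 0.19). Ndst4, an enzyme of heparan sulfate synthesis, had 4.86 and 22.0 against 84.0 and 84.6 (−2.33 ± 0.33, edgeR adjusted p = 1.55e-09). Without nuclei low in Erbb4 Pcsk5 and Tmem132d passed as well. Ndst4 (−2.17, edgeR adjusted p = 0.0859) and Pcdh10 (1.16, edgeR adjusted p = 0.118) did not, with log2 fold changes close to those with these nuclei.

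Of 12 striatal genes tested 2 were higher, Gng7 (172 and 222 against 131 and 94.7, 0.94 ± 0.20, edgeR adjusted p = 0.00042) and Rgs9 (165 and 226 against 139 and 122, 0.68 ± 0.19, edgeR adjusted p = 0.0346). The list had a median of 0.44, against 0.00 for all genes tested. Both genes differed more in library 3 than in library 2, and 7 of the 12 had an unadjusted p under 0.05. Adarb2, in the lists for interneurons and for atypical striatal neurons, was higher, with 3845 and 2981 against 1831 and 2201 (0.79 ± 0.15, edgeR adjusted p = 4.93e-05), and passed without the deepest nucleus and without nuclei low in Erbb4 (edgeR adjusted p = 0.0411). Of 6 interneuron genes tested the other that passed was Reln, a secreted glycoprotein, with 24.3 and 115 against 21.0 and 37.7 (1.39 ± 0.30), a difference mostly of library 3. Chst9 was lower, with 566 and 435 against 913 and 727 (−0.68 ± 0.17). Grm3, a metabotropic glutamate receptor, was higher, with 335 and 401 against 150 and 257 (0.88 ± 0.18), and had 1528 and 2380 CPM in oligodendrocyte-rich barcodes. Without nuclei low in Erbb4 Rgs9, Reln, Chst9 and Grm3 did not pass, with log2 fold changes of 0.80, 1.68, −0.53 and 0.97. Of 14 semaphorin and receptor genes 2 were higher, Sema3a (1.13 ± 0.28) and Sema5b (0.75 ± 0.19). Neither passed without nuclei low in Erbb4, where Sema3a was at 0.57 and Sema5b at 0.93. Chrm2 (−1.20 ± 0.29) and Kcnip1 (−0.95 ± 0.23) were lower here as well, with Chrm2 at −0.68 in library 2 and −1.51 in library 3 and Kcnip1 at −1.76 and −0.29. Without nuclei low in Erbb4 neither passed, though Chrm2 was at −1.69 and Kcnip1 at −1.46, further from 0 than with them. With every nucleus thinned to the same UMIs Chrm2, Rgs9, Sema3a, Sema5b, Pcdh10 and Pcsk5 did not pass, and Ndst4, Reln and Kcnip1 fell under the filter. Drd1, Penk, Tshz1, Oprm1 and Meis2 did not pass, with log2 fold changes between −0.31 and 0.12.

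Several calls of this comparison were lost or turned without the deepest nucleus. Gpc5, a glypican named after its value was seen, had 3387 and 86.9 CPM in members against 57.7 and 87.4, and its log2 fold change of 2.83 became −0.24 without that nucleus. Grik1, a kainate receptor subunit, went from 1.30 to −0.94, Zfp804a from 1.67 to 0.20 and Megf11 from 2.54 to 0.96, of which Grik1 passed as lower (edgeR adjusted p = 0.00116). Without that nucleus 105 genes passed (1.56%), among them 64 of the 87. Lhfpl3 (0.98 to 0.33), Kcnt2 (0.76 to 0.04) and Sema3a (1.13 to 0.80) no longer passed.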

How the data were processed

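Nuclear RNA of the BLA was read in 3 libraries, each a pool of 4 brains. The values deposited by the authors are UMI counts, not normalized; the submitters' processing notes name Cell Ranger 7.0.1 and mm10. Barcodes with more than 200 genes and less than 20% mitochondrial UMIs were gated per library on raw counts, with 1856079 and 4280129 UMIs in the Foxp2 nuclei of libraries 2 and 3. The members and gene lists were chosen with earlier results of these data known. UMIs were summed per library and group and tested with edgeR 4.0.16 in R 4.3.3 (quasi-likelihood test, TMM, filterByExpr, library as block, Benjamini-Hochberg adjustment, threshold 0.05). The scripts were tested on simulated data. With n = 2 libraries, a single gene gives little information on the spread between pooled samples, and edgeR shares its estimate of that spread over genes. A small p-value is therefore no measure of how closely the 2 libraries matched in that gene. The 12 highest and lowest genes named (6 in the second comparison) had an average log2 CPM of at least 5 and the same direction in both libraries. Up to 4 passing genes per list and a set of fixed markers were named besides, not all within these limits. In the second comparison Grik1 (3.53 and −0.66) and Gpc5 (5.85 and −0.0083) went opposite ways in libraries 2 and 3. Both still passed in edgeR (adjusted p = 1.25e-07 and 1.39e-31). Predicted genes were counted only. Alternatives were DESeq2 1.42.0, RLE factors, no filter, no block, other thresholds, matched or thinned depth (3200 UMIs), removal of doublets (ranked by the Scrublet score in scanpy 1.11.5) and of nuclei. Intervals are exact Clopper-Pearson. Promoters are from RefSeq (GRCm38.p6), positions from GENCODE on GRCm38. Results for some genes are not reported here.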

Additional observations from a re-analysis of the deposited data

How the results depend on the processing

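The share of members among Foxp2 nuclei (17.8%) was 20.3% with at least 1 Rarb UMI and 15.2% with 3. It was 22.7% with at least 1 trio UMI and 12.9% with 3. After thinning it was 19.3%, with the gate lowered to at least 1 UMI each of Foxp2, Rarb and the trio. Depth and thresholds thus changed together in that value. Leaving out a library gave 17.3% to 18.3%. Against other Foxp2 nuclei the 93 calls became 47 with DESeq2, 142 with RLE factors, 295 without a filter, 43 without the replicate block, 171 at matched depth, 156 and 260 with at least 1 and 3 trio UMIs and 144 without high doublet scores. Against Foxp2 Rarb nuclei without the trio the 87 became 3, 88, 80, 9, 61, 35 and 70, and 90. Chosen after the data were seen were the removal of the nucleus of over 50000 UMIs (375 and 105 calls), equal weight of all nuclei by thinning (152 and 27), the removal of nuclei low in Erbb4 (280 and 18), and thinning and the removal of a library for the finding of Sema3e with Gpr149 (37.7 points, 19.6 thinned, 38.0 to 42.1 without a library). Among values that had passed, the sign turned in the second comparison for Gpc5 (−0.24 without the deepest nucleus, −0.17 without nuclei low in Erbb4, without a library −0.0083 to 5.85), Grik1 (−0.94 and −1.04, without a library −0.66 to 3.53) and Kcnt2 (−0.044 without nuclei low in Erbb4). Values near 0 that had not passed, those of Oprm1 and Meis2 in both comparisons and of Drd1 and Tshz1 in the second, took either sign. Except for the nuclei left out, the cause was not tested. Of 70 named values with a DESeq2 adjusted p, 40 no longer passed with it. Counts per nucleus are low, so that a trio gene without a UMI was not detectable rather than absent, and 2 libraries limit every test.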
